A study of Mus musculus with 16 samples.

Results

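The 41 genes described here are the integrin subunits, the laminin chains and the thrombospondins of the mouse thyroid gland. They are the rows of the gene count table whose symbol starts with Itga or Itgb, Lama, Lamb or Lamc, or Thbs followed by the number or letter of a subunit, 41 of 25611 entries. They comprise 18 integrin alpha subunits, 8 integrin beta subunits, 11 laminin chains and 4 thrombospondins, and all 41 passed the filter on low counts that left 16630 genes to be tested. RNA-Seq counts were obtained from whole thyroid glands of 16 female C57BL/6 mice in 4 groups of 4. Those named WT were wild type and the *Glis3*-Pax8Cre mice carried the alleles given in the labels as Glis3<tm2Amj> together with the *Pax8* allele <tm1.1(cre)Mbu> on B6;129, in which Cre recombinase expressed from *Pax8* removes exon 5 of *Glis3* from follicular cells while the other cells of the gland keep the gene. Whether the WT mice carried floxed alleles or Cre is not stated. Mice of 1 month of age by the labels, 4 weeks by the study's methods, had been weaned at 3 weeks and were kept for 6 days on a normal diet (ND, NIH-31) or a low iodine diet (LID, TD.95125), which raises thyrotropin. The diet is given in parentheses after the genotype, as in WT(LID). The study reports that serum thyrotropin was slightly higher in *Glis3*-Pax8Cre than in WT mice on ND, and higher under LID. Loss of GLIS3 and the level of thyrotropin therefore cannot be told apart between the genotypes. The comparisons ask which genes differ between the genotypes under each diet, and which respond to the diet in each genotype.

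Integrins are receptors of the cell surface built from an alpha and a beta subunit, which bind the extracellular matrix or other cells and couple them to the actin cytoskeleton. *Itgb1* pairs with many alpha subunits to bind collagens, laminins or fibronectin, the *Itgav* partners bind ligands that carry an arginine-glycine-aspartate motif, and *Itgb2* and *Itgb7* are found on leukocytes. Laminins are trimers of an alpha, a beta and a gamma chain and are the main cell-adhesive proteins of basement membranes. In the thyroid gland a basement membrane surrounds every follicle and every capillary of the dense net around it. Thrombospondins are secreted glycoproteins of the matrix, of which *Thbs1* and *Thbs2* form trimers known for restraining angiogenesis, and *Thbs3* and *Thbs4* form pentamers.

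Promoter windows, from 250 bases before to 50 bases after the start of transcription, are shown for 4 members whose levels differed between the genotypes: *Itga2* and *Itga5*, whose diet response differed most among the members with a window, and *Lamb3* and *Thbs3*, which differed in opposite directions on both diets. RefSeq windows on GRCm38.p6, the assembly of mm10, matched 26 of the 41 members by symbol. They lie at chr13:114932051-114932350 (minus strand, from a RefSeq start outside the interval that was counted), chr15:103366742-103367041 (minus strand), chr1:193301744-193302043 (plus strand) and chr3:89214930-89215229 (plus strand), and are written 5′ to 3′ on the strand of the gene. Capitals mark the core letters of a GLIS binding site, TGGGGGGT or its reverse complement ACCCCCCA, and the GC box, GGGCGG or CCGCCC.
Itga2: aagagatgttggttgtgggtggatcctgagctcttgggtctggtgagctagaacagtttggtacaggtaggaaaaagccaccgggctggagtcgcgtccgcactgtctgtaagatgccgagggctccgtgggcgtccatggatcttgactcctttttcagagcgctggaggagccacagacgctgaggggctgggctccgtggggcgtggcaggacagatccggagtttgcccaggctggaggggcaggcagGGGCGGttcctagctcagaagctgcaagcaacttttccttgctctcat
Itga5: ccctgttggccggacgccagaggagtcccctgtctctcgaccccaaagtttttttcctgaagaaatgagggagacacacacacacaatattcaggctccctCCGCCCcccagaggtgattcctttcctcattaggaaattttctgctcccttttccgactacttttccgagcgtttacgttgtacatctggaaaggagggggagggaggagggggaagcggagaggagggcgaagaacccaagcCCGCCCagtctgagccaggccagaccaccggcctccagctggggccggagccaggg
Lamb3: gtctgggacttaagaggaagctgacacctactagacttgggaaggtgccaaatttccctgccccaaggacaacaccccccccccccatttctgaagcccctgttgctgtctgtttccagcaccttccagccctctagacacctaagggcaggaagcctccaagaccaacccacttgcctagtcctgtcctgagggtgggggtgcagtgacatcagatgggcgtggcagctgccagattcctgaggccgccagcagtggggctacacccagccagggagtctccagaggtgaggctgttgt
Thbs3: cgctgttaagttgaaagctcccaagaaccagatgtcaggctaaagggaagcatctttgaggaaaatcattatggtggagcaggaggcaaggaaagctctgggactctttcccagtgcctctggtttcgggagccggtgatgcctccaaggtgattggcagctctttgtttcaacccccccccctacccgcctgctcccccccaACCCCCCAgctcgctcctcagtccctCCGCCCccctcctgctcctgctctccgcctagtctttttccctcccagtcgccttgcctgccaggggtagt
The GLIS core letters were found in the window of *Thbs3* only among the 26 members, against 1.53% of all 32851 windows. A GC box was found in the windows of 13 of the 26, against 35.7% of all windows. The palindrome TGACGTCA of the cAMP response element was found in 0 of the 26, against 1.79%. A match describes the letters of the window and is not evidence of binding.

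Between 13892352 and 461077969 read pairs of a mouse fell on genes, and values are given as CPM, counts per 1000000 of the library size as scaled by edgeR's TMM method. *Glis3* itself was counted over the whole gene, at 45.2 to 85.8 CPM in the WT(ND) mice, 85.8 to 105 in *Glis3*-Pax8Cre(ND), 125 to 174 in WT(LID) and, with overlap, 119 to 204 in *Glis3*-Pax8Cre(LID), so these counts do not measure the loss of exon 5. The iodide transporter *Slc5a5* separated the genotypes, with 8.43 to 15.8 CPM in the *Glis3*-Pax8Cre(ND) mice and 15 to 20.2 in *Glis3*-Pax8Cre(LID), against 81.8 to 187 in WT(ND) and 1898 to 2178 in WT(LID). All 7 follicular markers were detected, *Tg* among them with 7.87% to 29.3% of the counts of a library. Libraries also stood apart. In 1 mouse of each group *Rag1*, which marks developing lymphocytes, was above 50 CPM: WT(ND) replicate 1, *Glis3*-Pax8Cre(ND) replicate 4, WT(LID) replicate 3 and *Glis3*-Pax8Cre(LID) replicate 4. Below that limit, WT(ND) replicate 2 had 6.38 CPM, against 0.0424 and 0.0989 CPM in WT(ND) replicates 3 and 4. Its 11 T cell and thymocyte markers summed to 49.3 CPM, against 10.6 and 9.52 CPM in those mice. It was kept where the 4 mice above 50 CPM were left out. WT(ND) replicate 3 had 995 CPM of *Pax8* against 374 to 397 in the other WT(ND) mice, while its *Slc5a5* (81.8 CPM) stayed on the WT side. Calls of members that rest on the mice with *Rag1* above 50 CPM or on WT(ND) replicate 3 are given with and without them. Medians over the members were taken with all mice.

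Under LID, loss of GLIS3 was accompanied by lower expression of many members. In *Glis3*-Pax8Cre(LID) against WT(LID), 17 of the 41 were lower and 2 were higher, tested with edgeR's quasi-likelihood test at a Benjamini-Hochberg adjusted p under 0.05. This is 46.3% of the members, against 30.2% of all genes tested, where 15.4% were lower and 14.9% higher. The median log2 fold change of the members was -0.36, against 0.012 for all genes tested. With library size alone in place of TMM, that median over all genes moved to 0.16 and the calls became 15 lower and 4 higher, while 1841 of all 16630 genes were then lower and 4122 higher. At the study's threshold, an adjusted p under 0.01 with a fold over 2, 9 members were lower and 1 higher, against 5.02% lower and 2.92% higher of all genes. Groups did not overlap for 21 of the 41 members, against 35.5% of all genes. By family, 10 of 26 integrins were lower and 1 higher, 5 of 11 laminin chains were lower, and 2 of 4 thrombospondins were lower and 1 higher. On ND, 6 members were lower and 3 higher in *Glis3*-Pax8Cre mice, 22.0% against 19.6% of all genes tested, a share near the background (9.25% lower and 10.3% higher), and at the study's threshold 5 were lower and 1 higher, against 1.86% lower and 2.29% higher of all genes. The split on ND was 6 lower and 13 higher with library size alone, which called 935 of all genes lower and 2719 higher. With DESeq2 it was 8 lower and 8 higher, beside 1806 lower and 2259 higher of 16861 genes. Groups did not overlap for 10 members on ND, against 19.5% of all genes.

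**Figure D1:**
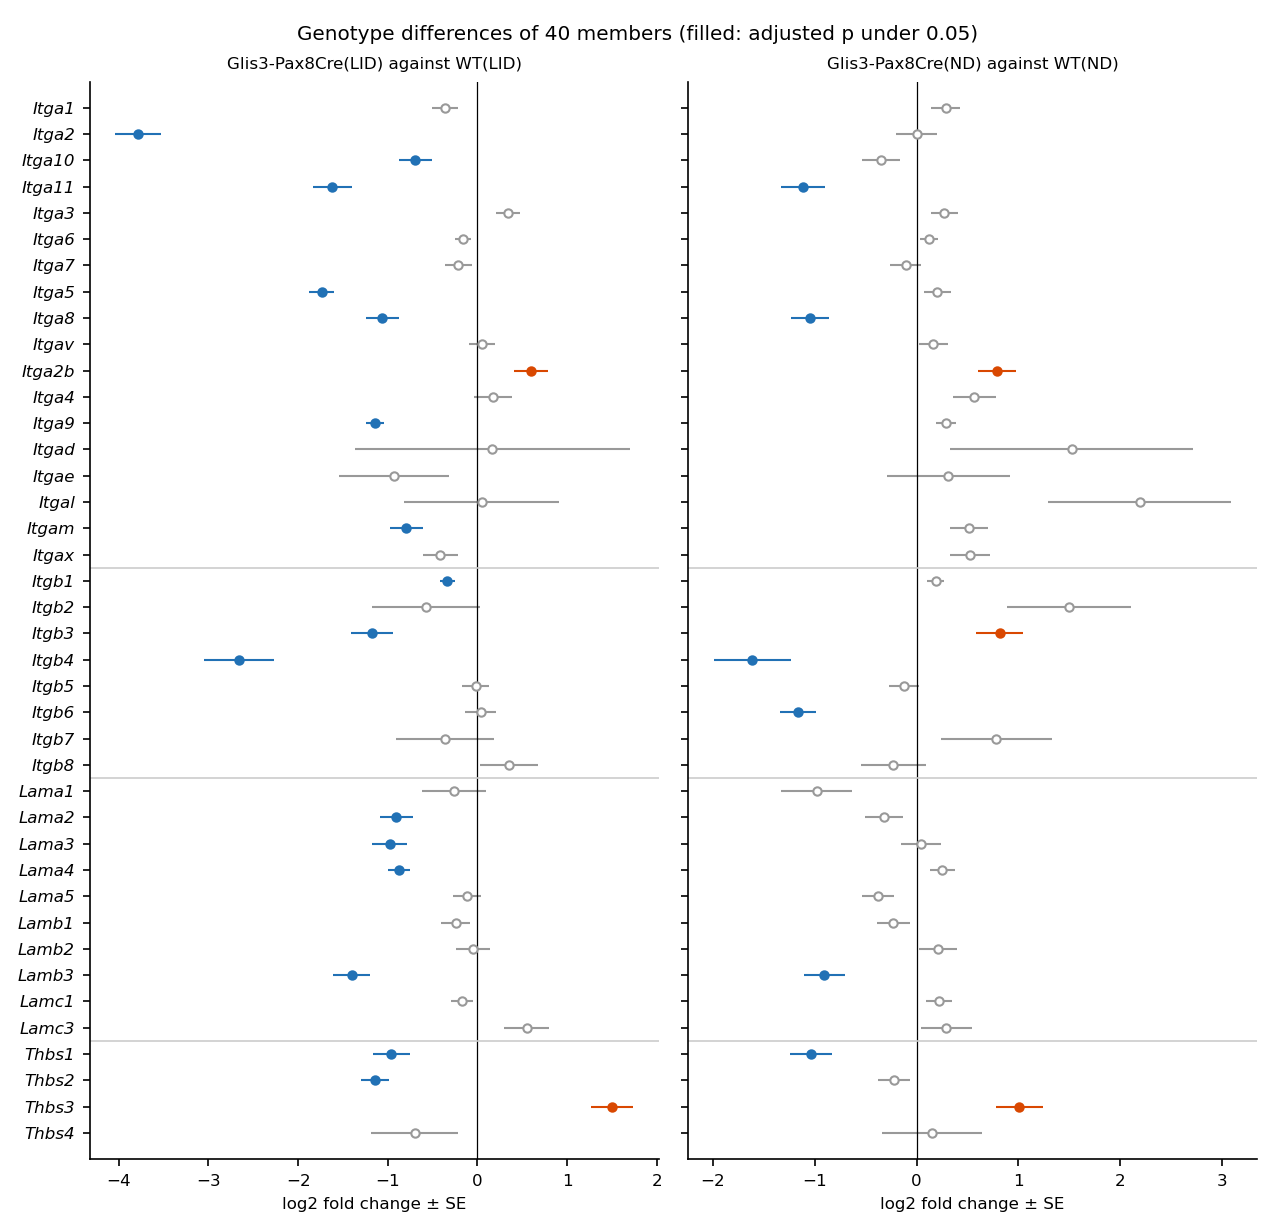
Log2 fold changes (points) with standard errors (whiskers) of 40 members between the genotypes, under LID on the left and on ND on the right, with filled points for an adjusted p under 0.05 and grey lines between the families. Under LID the called members lie left of 0 except *Itga2b* and *Thbs3*, and the 5 widest whiskers belong to the leukocyte subunits *Itgad*, *Itgal*, *Itgae*, *Itgb2* and *Itgb7*.

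The largest difference was that of *Itga2*, the alpha subunit with which *Itgb1* binds collagen on epithelial cells and platelets. Its levels in the WT(LID) mice were 7.42, 11.7, 12.6 and 12.2 CPM, and in the *Glis3*-Pax8Cre(LID) mice 0.531, 0.878, 1.05 and 0.721 CPM. On ND they were 0.603, 0.704, 0.692 and 0.735 CPM in WT and 1.00, 0.678, 0.487 and 0.660 CPM in *Glis3*-Pax8Cre mice. Only the WT(LID) group stood apart, and the 3 other groups overlapped with one another. *Itga2* was 13.8-fold lower in the *Glis3*-Pax8Cre mice than in WT on LID (log2 fold change -3.78 ± 0.25, adjusted p = 6.7e-08) and 16-fold higher in WT(LID) than in WT(ND) (4.0 ± 0.26, adjusted p = 3.0e-08). The low iodine diet moved it by 0.22 ± 0.24 in *Glis3*-Pax8Cre mice, with an adjusted p of 0.541, and the 2 diet responses differed by -3.78 ± 0.34 (interaction, adjusted p = 6.2e-06).

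The other subunits that bind collagen with *Itgb1* are those of mesenchymal cells. *Itga11*, known from fibroblasts, was at 5.94, 6.4, 5.46 and 6.34 CPM in the WT(LID) mice and 2.09, 1.85, 2.39 and 1.53 CPM in the *Glis3*-Pax8Cre(LID) mice. The ND mice had 3.84, 4.69, 2.20 and 2.89 CPM in WT and 1.25, 1.91, 1.62 and 1.43 CPM in *Glis3*-Pax8Cre mice. The genotypes did not overlap on either diet. *Itga11* was lower in *Glis3*-Pax8Cre mice under LID (-1.62 ± 0.22, adjusted p = 4.6e-05) and on ND (-1.12 ± 0.22, adjusted p = 0.00242), and it rose with LID in WT (0.83 ± 0.21, adjusted p = 0.00541). Its interaction term was not called (-0.50 ± 0.30, adjusted p = 0.311). *Itga10*, a subunit of cartilage, was at 2.58, 3.70, 2.66 and 2.79 CPM in the WT(LID) mice and 2.12, 1.72, 1.84 and 1.56 CPM in the *Glis3*-Pax8Cre(LID) mice, a smaller difference of -0.69 ± 0.19, adjusted p = 0.0110. *Itga1*, which per kilobase had the highest level of these subunits, was not called between the genotypes, but its rise with LID was 1.23 ± 0.14 in WT and 0.58 ± 0.14 in *Glis3*-Pax8Cre mice, with an interaction of -0.65 ± 0.20, adjusted p = 0.0457. This call was lost when any of 11 mice was left out and without the 4 mice with *Rag1* above 50 CPM (-0.58 ± 0.25, adjusted p = 0.188).

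Of the subunits that bind arginine-glycine-aspartate ligands, *Itga5*, which with *Itgb1* forms the main fibronectin receptor, was at 59.2, 63.8, 74.1 and 72.3 CPM in the WT(LID) mice and 16.2, 25.8, 21.2 and 17.7 CPM in the *Glis3*-Pax8Cre(LID) mice. On ND it ranged from 16.6 to 20.3 CPM in WT and from 18.4 to 23.0 CPM in *Glis3*-Pax8Cre mice. As with *Itga2*, WT(LID) lay above every other mouse and the other groups overlapped. Its difference under LID was -1.74 ± 0.14, adjusted p = 2.8e-07, its rise with LID in WT was 1.89 ± 0.14, adjusted p = 7.9e-08, and the interaction was -1.94 ± 0.19, adjusted p = 1.2e-05. *Itga8*, which binds nephronectin on mesenchymal cells, was at 4.59, 7.03, 8.09 and 8.23 CPM in the WT(LID) mice against 3.21, 3.03, 3.84 and 3.30 CPM in the *Glis3*-Pax8Cre(LID) mice. It was lower on both diets, -1.06 ± 0.18, adjusted p = 4.0e-04 under LID and -1.05 ± 0.18, adjusted p = 0.00124 on ND, and its diet responses were not called (-0.080 in WT and -0.095 in *Glis3*-Pax8Cre mice). Of the exonic bases of *Itga8*, 5.05% are shared with *E030013I19Rik*, whose reads cannot be told apart without strand. *Itgav*, the partner of *Itgb3*, *Itgb5*, *Itgb6* and *Itgb8*, was at 146 ± 20.3 CPM in the WT(LID) mice and 152 ± 23.4 CPM in the *Glis3*-Pax8Cre(LID) mice (SD, n = 4) and passed in none of the 5 edgeR tests, also at an unadjusted p under 0.05 or by DESeq2, with log2 fold changes between -0.11 and 0.27.

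*Itga2b*, the platelet fibrinogen receptor subunit, was one of 2 members higher in *Glis3*-Pax8Cre(LID). Its levels were 15, 13.9, 13.9 and 14.5 CPM in the WT(LID) mice and 22.3, 23.3, 18.6 and 22.4 CPM in the *Glis3*-Pax8Cre(LID) mice, without overlap. The difference was 0.60 ± 0.19, adjusted p = 0.0246, and 0.79 ± 0.19, adjusted p = 0.00891 on ND, where 20.3 CPM in WT(ND) replicate 3 overlapped with the *Glis3*-Pax8Cre(ND) range of 17.7 to 26.8 CPM. The call on ND held without that mouse, and was lost in the 8 ND mice alone (0.80, adjusted p = 0.0656). Under LID the call was lost when any of 6 mice was left out and without the 4 mice with *Rag1* above 50 CPM (0.56 ± 0.21, adjusted p = 0.0707). The platelet markers summed to 9.49 to 14.1 CPM in the WT(LID) mice and 10.2 to 15.2 CPM in the *Glis3*-Pax8Cre(LID) mice, most of it *Pf4*, with *Gp9* and *Gp5* at most 0.391 and 0.250 CPM in any mouse, and their part in the *Itga2b* result was not tested.

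*Itga9*, a receptor subunit for tenascin C and osteopontin, was at 52.3, 42.3, 42.1 and 45.0 CPM in the WT(LID) mice, and at 23.4, 19.8, 21.9 and 17.0 CPM in the *Glis3*-Pax8Cre(LID) mice. On ND it ranged from 13.2 to 15.5 CPM in WT and from 16.7 to 18.1 CPM in *Glis3*-Pax8Cre mice. Groups did not overlap in either genotype comparison. *Itga9* was lower under LID (-1.15 ± 0.10, adjusted p = 7.3e-07), rose with LID in WT (1.65 ± 0.10, adjusted p = 1.8e-08) and not by the test in *Glis3*-Pax8Cre mice (0.22 ± 0.10, adjusted p = 0.110), and the interaction was -1.43 ± 0.14, adjusted p = 1.1e-05. Without the 4 mice with *Rag1* above 50 CPM the rise in *Glis3*-Pax8Cre mice passed (0.31 ± 0.10, adjusted p = 0.0443).

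The laminin-binding alpha subunits were not called between the genotypes at an adjusted p under 0.05. *Itga3*, the partner of *Itgb1* that binds the laminins of epithelia, was at 276, 312, 285 and 281 CPM in the WT(LID) mice and 318, 349, 448 and 344 CPM in the *Glis3*-Pax8Cre(LID) mice. Every *Glis3*-Pax8Cre(LID) mouse lay above every WT(LID) mouse, although the difference was not called (0.34 ± 0.13, adjusted p = 0.0685). It rose with LID in both genotypes, by 1.25 ± 0.14, adjusted p = 4.3e-06 in WT and by 1.32 ± 0.14, adjusted p = 1.1e-05 in *Glis3*-Pax8Cre mice, with an interaction of 0.068 ± 0.19, adjusted p = 0.861. *Itga6*, the subunit that pairs with *Itgb4* in hemidesmosomes, was at 311 ± 10.9 CPM in the WT(LID) mice and 277 ± 29.0 CPM in the *Glis3*-Pax8Cre(LID) mice (SD, n = 4), and it rose in WT by 0.41 ± 0.090, adjusted p = 0.00169. *Itga7*, a subunit of muscle, rose in WT by 0.52 ± 0.15, adjusted p = 0.0127, while the summed skeletal muscle markers ranged from 0.925 to 359 CPM in the WT(ND) mice and from 0.847 to 985 CPM in the WT(LID) mice. Under LID the genotypes differed by -0.16 ± 0.089, adjusted p = 0.191 for *Itga6* and by -0.21 ± 0.15, adjusted p = 0.317 for *Itga7*. With library size alone the rise of *Itga7* was not called (0.36 ± 0.16, adjusted p = 0.0819) nor without WT(LID) replicate 4 (0.41, adjusted p = 0.0520).

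*Itgb4*, whose long cytoplasmic tail anchors keratin filaments at hemidesmosomes, had the second largest difference under LID. It was at 37.6, 43.5, 40.6 and 38.4 CPM in the WT(LID) mice, and at 5.75, 5.66, 7.28 and 6.59 CPM in the *Glis3*-Pax8Cre(LID) mice. Mice on ND had 29.9, 23.5, 6.61 and 36.4 CPM in WT and 5.65, 8.14, 5.61 and 11.9 CPM in *Glis3*-Pax8Cre mice. The WT(LID) mice all lay above the *Glis3*-Pax8Cre(LID) mice, and on ND the groups overlapped through WT(ND) replicate 3. *Itgb4* was 6.33-fold lower under LID (-2.66 ± 0.39, adjusted p = 1.5e-04) and 3.06-fold lower on ND (-1.61 ± 0.38, adjusted p = 0.00914), or -1.91 ± 0.22, adjusted p = 2.2e-05 without that mouse. In the 8 ND mice alone, the difference was not called (-1.59, adjusted p = 0.0801). The diet responses were not called in either genotype, at 0.73 ± 0.37 and -0.32 ± 0.37. Of the 6 markers of basal and squamous epithelium of trachea and oesophagus, 3 passed the filter and 1 of these was lower in *Glis3*-Pax8Cre mice on each diet. Their sum was 28.5 to 32.8 CPM in the WT(LID) mice, 13.1 to 28.8 in *Glis3*-Pax8Cre(LID), 21.6 to 94.5 in WT(ND) and 18.8 to 104 in *Glis3*-Pax8Cre(ND). *Krt14* was at 0.0717 to 0.359 CPM in the WT(LID) mice and 0.586 to 1.68 CPM in the *Glis3*-Pax8Cre(LID) mice, *Trp63* was lower in *Glis3*-Pax8Cre(LID) (-1.08 ± 0.15, adjusted p = 6.2e-05), and their part in the *Itgb4* result was not tested.

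*Itgb1*, the common beta subunit and the most abundant member per kilobase, differed by less. Its levels were 1027, 1028, 1023 and 1022 CPM in the WT(LID) mice and 838, 787, 850.1 and 774 CPM in the *Glis3*-Pax8Cre(LID) mice. On ND they ranged from 553 to 564 CPM in WT and from 539.7 to 715 CPM in *Glis3*-Pax8Cre mice. The spread within the WT groups was small, and every WT(LID) mouse lay above every *Glis3*-Pax8Cre(LID) mouse. The difference was -0.34 ± 0.082, adjusted p = 0.00594, but -0.19 ± 0.083, adjusted p = 0.0845 with library size alone. *Itgb1* rose with LID by 0.88 ± 0.083, adjusted p = 1.1e-06 in WT and by 0.36 ± 0.083, adjusted p = 0.00574 in *Glis3*-Pax8Cre mice. The interaction was -0.52 ± 0.12, adjusted p = 0.00850. In fits of the 8 *Glis3*-Pax8Cre mice alone the rise was not called, with the replicate number as a block (adjusted p = 0.0770) or without it (0.0836).

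*Itgb3*, the partner of *Itgav* and *Itga2b*, was at 20.2, 20.8, 20.9 and 18 CPM in the WT(LID) mice, and at 8.56, 10.2, 10.05 and 6.56 CPM in the *Glis3*-Pax8Cre(LID) mice. On ND the values were 5.32, 5.96, 5.33 and 4.17 CPM in WT and 5.90, 8.24, 7.23 and 15 CPM in *Glis3*-Pax8Cre mice. WT(LID) was again above all other mice. *Itgb3* was lower under LID (-1.18 ± 0.23, adjusted p = 0.00114) and higher on ND (0.82 ± 0.23, adjusted p = 0.0222), where replicate 4 was the highest of the *Glis3*-Pax8Cre(ND) mice. The call on ND was lost without the 4 mice with *Rag1* above 50 CPM (0.49 ± 0.15, adjusted p = 0.0567). Its rise with LID in WT was 1.95 ± 0.24, adjusted p = 1.3e-05 and the interaction -1.99 ± 0.33, adjusted p = 9.2e-04, or -1.52 ± 0.22, adjusted p = 0.00108 without those mice.

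*Itgb6*, an epithelial partner of *Itgav* known for activating latent TGF-beta, was the 1 member whose called interaction was above 0. It was at 21.1, 23.3, 12.5 and 15.5 CPM in the WT(ND) mice and 7.15, 9.80, 8.63 and 6.58 CPM in the *Glis3*-Pax8Cre(ND) mice. Under LID it was at 11.8, 11.7, 11.6 and 9.72 CPM in WT and 11.1, 12.8, 10.5 and 11.5 CPM in *Glis3*-Pax8Cre mice. The genotypes were apart on ND and overlapped under LID. *Itgb6* was lower in *Glis3*-Pax8Cre(ND) (-1.17 ± 0.17, adjusted p = 4.1e-04), fell with LID in WT (-0.69 ± 0.17, adjusted p = 0.00441) and was higher with LID in *Glis3*-Pax8Cre mice (0.51 ± 0.17, adjusted p = 0.0420), and the interaction was 1.20 ± 0.24, adjusted p = 0.00467. The call in *Glis3*-Pax8Cre mice was lost when any of 10 mice was left out and under 4 other settings, with adjusted p up to 0.162. Of the remaining partners of *Itgav*, *Itgb8* fell with LID in WT (-1.14 ± 0.33, adjusted p = 0.0110), although not without the 4 mice with *Rag1* above 50 CPM (-1.06 ± 0.40, adjusted p = 0.0540). *Itgb5* passed in none of the 5 edgeR tests, also unadjusted or by DESeq2, and its lowest value was 64.5 CPM in *Glis3*-Pax8Cre(ND) replicate 4, against 114 to 117 CPM in the WT(ND) mice.

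**Figure D2:**
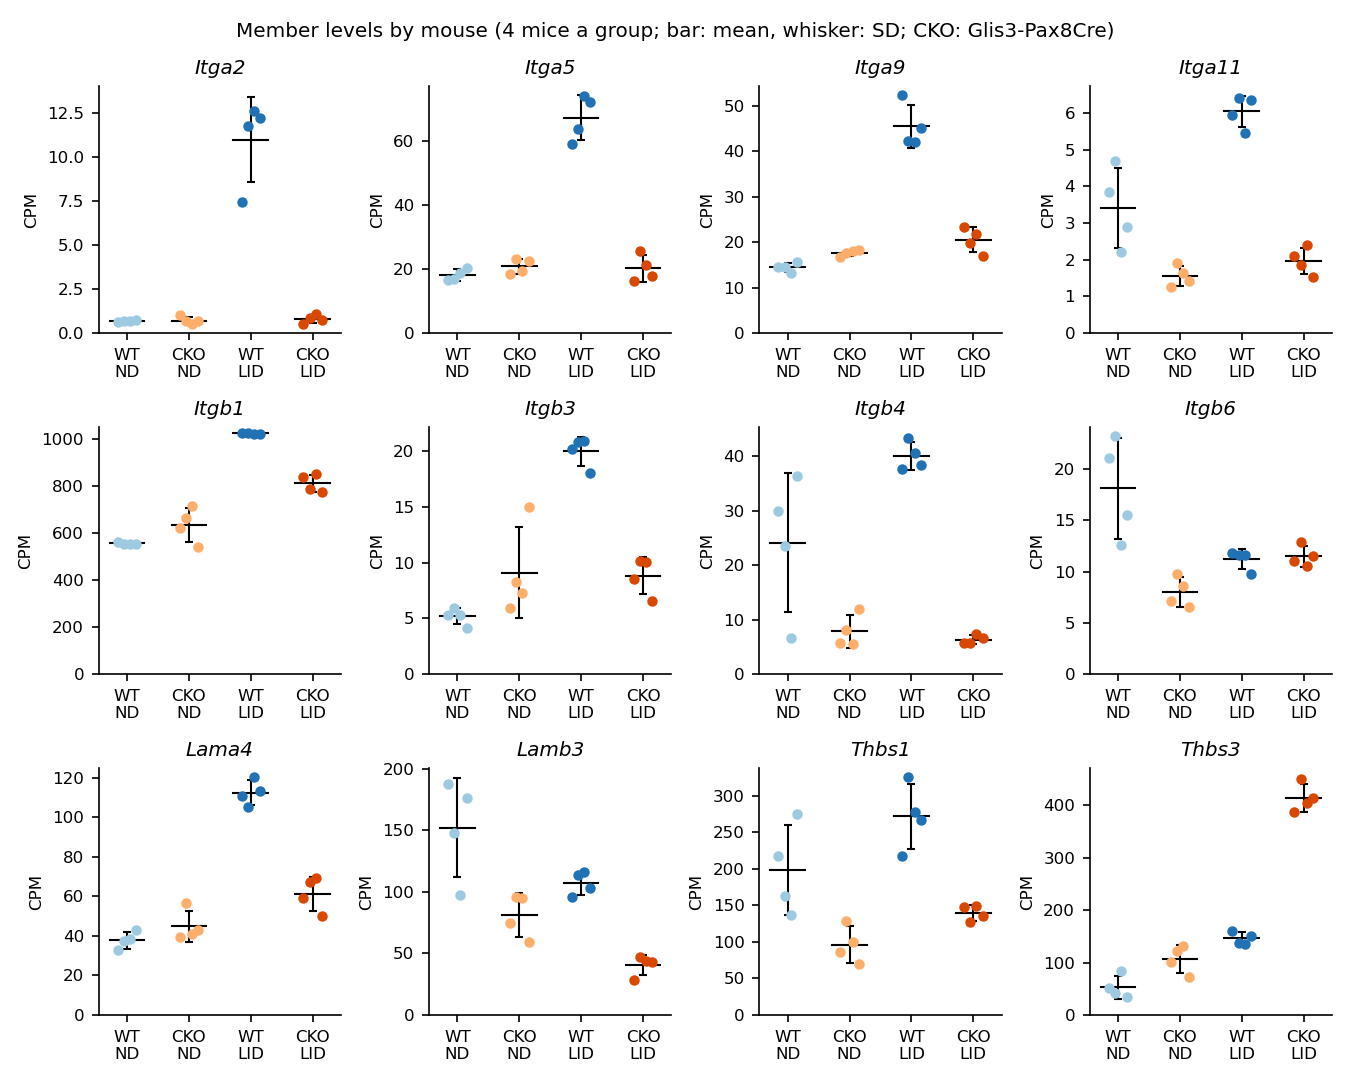
Levels in CPM of 12 members in each mouse (points), with the mean (bar) and SD (whisker) of the 4 mice of a group, where CKO stands for *Glis3*-Pax8Cre. *Itga2*, *Itga5*, *Itga9*, *Itga11*, *Itgb1*, *Itgb3*, *Itgb4* and *Lama4* were highest in WT(LID), and *Thbs3* was highest in *Glis3*-Pax8Cre(LID). For *Itgb4*, 1 WT(ND) mouse lay at 6.61 CPM.

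The leukocyte subunits were told apart from the epithelial ones, which are *Itga2*, *Itga3*, *Itga6*, *Itgb4* and *Itgb6*. Of the 8 leukocyte subunits, 1 was lower in *Glis3*-Pax8Cre(LID). On ND 0 were called by edgeR, 5 at an unadjusted p under 0.05 and 3 by DESeq2 (*Itga4*, *Itgam* and *Itgax*). Of the 5 epithelial subunits 2 were lower under LID and 2 on ND. Of all genes tested, 30.2% were called under LID (15.4% lower) and 19.6% on ND (9.25% lower). Summed over the epithelial subunits, the level was 397 ± 35.9 and 661 ± 23.2 CPM on ND and LID in WT, and 416 ± 44.8 and 661 ± 80.6 CPM in *Glis3*-Pax8Cre mice (SD, n = 4), most of it *Itga3* and *Itga6*. Over the leukocyte subunits, the sums of the 4 *Glis3*-Pax8Cre(ND) mice were 134, 196, 169 and 433 CPM, and the other groups ranged from 106 to 149 CPM in the WT(ND) mice, from 109 to 136 in the WT(LID) mice and from 77.6 to 147 in the *Glis3*-Pax8Cre(LID) mice. Without *Itga4*, which cells other than leukocytes also make, the leukocyte sum was 40.4 ± 4.39 CPM in the WT(ND) mice, 55.3 ± 12.7 CPM in the WT(LID) mice and 40.4 ± 11.8 CPM in the *Glis3*-Pax8Cre(LID) mice. In the *Glis3*-Pax8Cre(ND) mice it was 40.6, 48.7, 36.9 and 285 CPM, so that replicate 4 stood apart from the other mice of its group. In bulk tissue, fewer cells of a type and less RNA per cell cannot be told apart.

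The highest values of several leukocyte subunits lay in the mice with *Rag1* above 50 CPM. *Itgal*, the lymphocyte subunit that binds ICAM proteins with *Itgb2*, was at 15.2, 8.84, 7.90 and 7.70 CPM in the WT(ND) mice and 9.22, 11.4, 8.81 and 151 CPM in the *Glis3*-Pax8Cre(ND) mice. Under LID it was at 7.70, 6.96, 23.6 and 8.41 CPM in WT and 7.89, 8.28, 8.04 and 24.1 CPM in *Glis3*-Pax8Cre mice. The highest value of each group was that of the mouse with *Rag1* above 50 CPM. *Itgb2*, the partner of *Itgal*, *Itgam*, *Itgax* and *Itgad*, was at 9.16, 11.4, 8.17 and 81.0 CPM in the *Glis3*-Pax8Cre(ND) mice, and *Itgb7*, the partner of *Itga4* and *Itgae*, at 3.20, 2.97, 2.11 and 19.6 CPM. Replicate 4 stood far above the others in both. The 11 T cell and thymocyte markers summed to 3006 CPM in this mouse, and to 12.2 to 14.6 CPM in the other 3 of its group. *Itgal*, *Itgb2*, *Itgae*, *Itgb7* and *Itgad* were called in none of the 5 edgeR tests with all 16 mice, nor by DESeq2, and *Itgb2* was under 0.05 in 3 of the 5 unadjusted. *Itgal*, *Itgae* and *Itgb7* were so in 1 each and *Itgad* in 0. These genes were named after their values were seen.

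**Figure D3:**
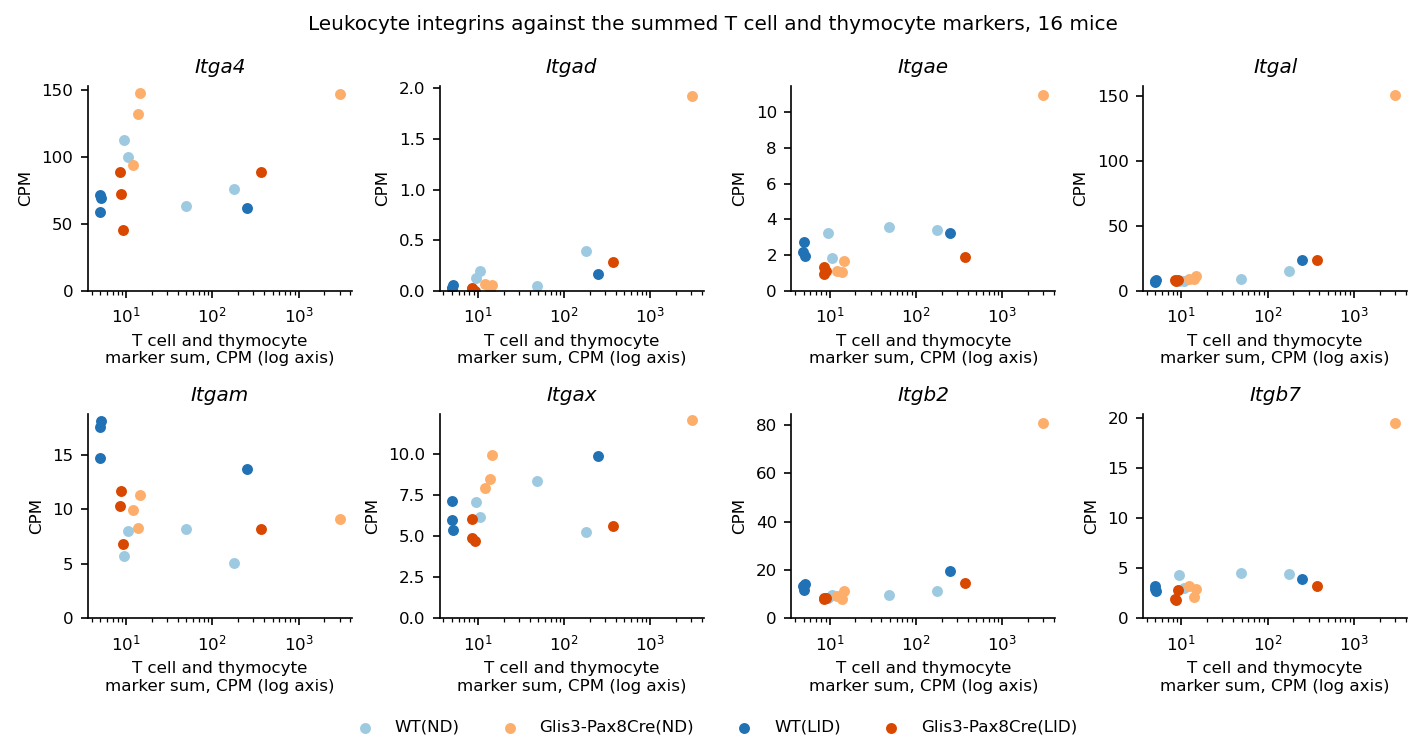
Levels in CPM of the 8 leukocyte integrin subunits (vertical axis) against the summed T cell and thymocyte markers in CPM (log axis) in the 16 mice, coloured by group. *Itgal*, *Itgb2*, *Itgae*, *Itgb7* and *Itgad* reached their highest value in *Glis3*-Pax8Cre(ND) replicate 4, and *Itgam* was highest in WT(LID).

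With the 4 mice with *Rag1* above 50 CPM left out, 3 mice a group remained, and the SD of *Itgal*, *Itgb2* and *Itgad* was smaller in every group, that of *Itga4* larger in every group and that of the remaining leukocyte subunits smaller in some groups and larger in others. *Itgal* then ranged from 7.70 to 8.84 CPM in the WT(ND) mice, from 8.81 to 11.4 in the *Glis3*-Pax8Cre(ND) mice, from 6.96 to 8.41 in the WT(LID) mice and from 7.89 to 8.28 in the *Glis3*-Pax8Cre(LID) mice. *Itgb2* ranged from 11.8 to 14.1 CPM in the WT(LID) mice and from 7.97 to 8.57 CPM in the *Glis3*-Pax8Cre(LID) mice, without overlap. In this fit, chosen after seeing the data, *Itgb2* was lower in *Glis3*-Pax8Cre(LID) (-0.65 ± 0.13, adjusted p = 0.00310), rose with LID in WT (0.50 ± 0.13, adjusted p = 0.00826) and had an interaction of -0.71 ± 0.18, adjusted p = 0.0327. *Itgae*, which with *Itgb7* binds E-cadherin, was lower in *Glis3*-Pax8Cre mice under LID (-1.01 ± 0.28, adjusted p = 0.0196) and on ND (-1.13 ± 0.28, adjusted p = 0.0226). *Itgal* was not called between the genotypes (0.069 ± 0.12, adjusted p = 0.713 under LID and 0.27 ± 0.12, adjusted p = 0.166 on ND), and *Itgad* no longer passed the filter on low counts.

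*Itgam*, the subunit of the complement receptor of macrophages and granulocytes, differed with all mice. It was at 17.5, 14.7, 13.6 and 18.1 CPM in the WT(LID) mice, and at 11.6, 6.78, 10.3 and 8.19 CPM in the *Glis3*-Pax8Cre(LID) mice. On ND it ranged from 5.06 to 8.23 CPM in WT and from 8.24 to 11.3 CPM in *Glis3*-Pax8Cre mice. WT(LID) lay above the other groups. *Itgam* was lower under LID (-0.79 ± 0.19, adjusted p = 0.00463), rose with LID in WT (1.24 ± 0.19, adjusted p = 9.7e-05) and had an interaction of -1.31 ± 0.27, adjusted p = 0.00465, and all 3 held without the 4 mice, at -0.81, 1.20 and -1.24. Of the 8 macrophage markers, 1 was higher in the *Glis3*-Pax8Cre mice than in WT on LID, and 3 rose with LID in WT. Their summed level was 272 to 300.3 CPM in the WT(LID) mice and 249 to 338 CPM in the *Glis3*-Pax8Cre(LID) mice, and their part in the *Itgam* result was not tested.

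*Itgax*, a subunit of dendritic cells and some macrophages, and *Itga4*, which binds VCAM1 and MADCAM1, fell with LID in *Glis3*-Pax8Cre mice. *Itgax* was at 7.90, 9.94, 8.49 and 12.1 CPM in the *Glis3*-Pax8Cre(ND) mice and 6.06, 4.72, 4.90 and 5.62 CPM in the *Glis3*-Pax8Cre(LID) mice, a change of -0.85 ± 0.20, adjusted p = 0.00545. *Itga4* was at 93.7, 148, 132 and 147 CPM in the *Glis3*-Pax8Cre(ND) mice and 72.1, 45.4, 88.3 and 88.8 CPM in the *Glis3*-Pax8Cre(LID) mice, a change of -0.82 ± 0.21, adjusted p = 0.0117. Neither pair of groups overlapped, and both calls held without the 4 mice (-0.75 and -0.86). The interaction of *Itgax* (-0.94 ± 0.28, adjusted p = 0.0367) was lost without the 4 mice (-0.54 ± 0.23, adjusted p = 0.170) and on leaving out any of 10 mice. Of the exonic bases of *Itga4*, 8.04% are shared with *Cerkl*. Macrophage markers moved beside these genes: 8 of 8 were higher in the *Glis3*-Pax8Cre mice than in WT on ND, and 5 of 8 fell with LID in *Glis3*-Pax8Cre mice, where their sum was 351 to 414 CPM on ND and 249 to 338 CPM under LID, and their part was not tested.

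Among the laminin chains, 5 of 11 were lower in the *Glis3*-Pax8Cre mice than in WT on LID, among them *Lama2*, *Lama3*, *Lama4* and *Lamb3*. *Lama4*, the alpha chain of vessel walls, was at 110.4, 105, 120.5 and 113 CPM in the WT(LID) mice, and at 59.1, 67.0, 69.2 and 50.2 CPM in the *Glis3*-Pax8Cre(LID) mice. On ND it ranged from 32.7 to 42.8 CPM in WT and from 39.2 to 56.5 CPM in *Glis3*-Pax8Cre mice. All WT(LID) mice lay above all *Glis3*-Pax8Cre(LID) mice, and the ND groups overlapped. *Lama4* was lower under LID (-0.87 ± 0.12, adjusted p = 7.9e-05), rose with LID in WT (1.57 ± 0.13, adjusted p = 2.2e-07) and less in *Glis3*-Pax8Cre mice (0.45 ± 0.12, adjusted p = 0.0154), and the interaction was -1.13 ± 0.17, adjusted p = 5.9e-04. The rise in *Glis3*-Pax8Cre mice was not called with library size alone (0.31 ± 0.12, adjusted p = 0.0598).

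*Lama3*, the alpha chain of epithelial anchoring laminin, was at 32.9, 51.8, 42.8 and 34.6 CPM in the WT(LID) mice, and at 19.5, 17.9, 27.7 and 17.2 CPM in the *Glis3*-Pax8Cre(LID) mice. On ND it ranged from 19.1 to 26.0 CPM in WT and from 17.9 to 32.5 CPM in *Glis3*-Pax8Cre mice. The genotypes were apart under LID only. Its difference was -0.98 ± 0.20, adjusted p = 0.00146 under LID and 0.044 ± 0.20, adjusted p = 0.904 on ND, and the interaction (-1.02 ± 0.28, adjusted p = 0.0252) was lost when any of 4 mice was left out and without the 4 mice with *Rag1* above 50 CPM (-0.79 ± 0.28, adjusted p = 0.111). *Lama2*, the chain of muscle and nerve basement membranes, was at 29.2, 38.8, 36.9 and 29.2 CPM in the WT(LID) mice and 18.9, 17.0, 24.5 and 11.1 CPM in the *Glis3*-Pax8Cre(LID) mice, a difference of -0.91 ± 0.19, adjusted p = 0.00168.

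*Lamb3*, the beta partner of *Lama3*, was at 95.6, 113, 116 and 103 CPM in the WT(LID) mice, and at 28.3, 47.0, 43.9 and 43.1 CPM in the *Glis3*-Pax8Cre(LID) mice. The ND mice had 188, 148, 97.1 and 176 CPM in WT and 74.3, 96.0, 95.0 and 59.2 CPM in *Glis3*-Pax8Cre mice. The genotypes did not overlap on either diet, although WT(ND) replicate 3 was close to the *Glis3*-Pax8Cre(ND) mice. *Lamb3* was 2.64-fold lower under LID (-1.40 ± 0.21, adjusted p = 1.2e-04) and 1.87-fold lower on ND (-0.91 ± 0.20, adjusted p = 0.00675). It fell with LID in *Glis3*-Pax8Cre mice (-1.0 ± 0.21, adjusted p = 0.00273). In WT, where it ranged from 97.1 to 188 CPM on ND and from 95.6 to 116 CPM under LID, DESeq2 called the diet response and edgeR did not. Its interaction was not called. On ND its difference was -1.05 ± 0.18, adjusted p = 6.6e-04 without WT(ND) replicate 3 and -0.66 ± 0.22, adjusted p = 0.0726 without the 4 mice with *Rag1* above 50 CPM.

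The chains of the common basement membrane laminins, *Lama5*, *Lamb1* and *Lamc1*, rose with LID in both genotypes and were not called between them. *Lamc1* ranged from 129 to 157 CPM in the WT(ND) mice and from 419 to 455 CPM in the WT(LID) mice. It rose by 1.67 ± 0.13, adjusted p = 1.8e-07 in WT and by 1.28 ± 0.13, adjusted p = 9.9e-06 in *Glis3*-Pax8Cre mice. *Lamb1* rose by 1.40 ± 0.16, adjusted p = 8.5e-06 in WT and 1.39 ± 0.16, adjusted p = 3.2e-05 in *Glis3*-Pax8Cre mice. *Lama5* rose by 0.67 ± 0.15, adjusted p = 0.00276 and 0.93 ± 0.16, adjusted p = 5.8e-04. *Lamb2*, a beta chain of muscle and kidney basement membranes, passed in none of the 5 edgeR tests, also unadjusted or by DESeq2, at 176 ± 16.6 CPM in the WT(LID) mice and 170.0 ± 33.3 CPM in the *Glis3*-Pax8Cre(LID) mice (SD, n = 4). The low chains *Lama1* and *Lamc3* fell with LID, *Lama1* with log2 fold changes of -1.87 ± 0.35, adjusted p = 6.1e-04 in WT and -1.15 ± 0.36, adjusted p = 0.0269 in *Glis3*-Pax8Cre mice and *Lamc3* with -1.09 ± 0.25, adjusted p = 0.00285 and -0.83 ± 0.25, adjusted p = 0.0250. The falls in *Glis3*-Pax8Cre mice were lost without the 4 mice with *Rag1* above 50 CPM (-0.85 ± 0.34, adjusted p = 0.0870 and -0.76 ± 0.28, adjusted p = 0.0670), and on leaving out any of 4 mice for *Lama1* and of 3 for *Lamc3*. Sums of markers of parathyroid cells, whose glands lie against the thyroid, and of the calcitonin-producing C cells within it were lower under LID as well. The 3 parathyroid markers summed to 3476 to 6004 CPM in the WT(ND) mice, 3289 to 5179 CPM in the *Glis3*-Pax8Cre(ND) mice, 858 to 1676 CPM in the WT(LID) mice and 225 to 2099 CPM in the *Glis3*-Pax8Cre(LID) mice, and all 3 fell in both genotypes. The 3 C-cell markers summed to 7293 to 9591 CPM in the WT(ND) mice, 3359 to 5811 CPM in the *Glis3*-Pax8Cre(ND) mice, 2338 to 3676 CPM in the WT(LID) mice and 1255 to 3205 CPM in the *Glis3*-Pax8Cre(LID) mice, of which 2 fell in WT and 1 in *Glis3*-Pax8Cre mice. The diets did not overlap in these sums in either genotype. Their part in the falls of *Lama1*, *Lamc3*, *Itgb6* and *Itgb8* was not tested.

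As shares of the summed CPM per kilobase of exon, the beta chains differed between the diets. *Lamb1* made up 29.2% ± 6.22 of the beta chains in WT(ND) and 56.3% ± 0.596 in WT(LID), and 29.2% ± 4.98 in *Glis3*-Pax8Cre(ND) and 59.3% ± 3.83 in *Glis3*-Pax8Cre(LID) (SD, n = 4). *Lamb3* took the opposite course, from 30.5% ± 6.03 in WT(ND) to 15.7% ± 0.473 in WT(LID), and from 18.7% ± 1.55 to 7.35% ± 1.17 in *Glis3*-Pax8Cre mice. *Lama5* was the main alpha chain in every group, with 72.0% ± 2.28 under LID in WT and 81.3% ± 3.29 in *Glis3*-Pax8Cre mice. These shares were not tested.

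**Figure D4:**
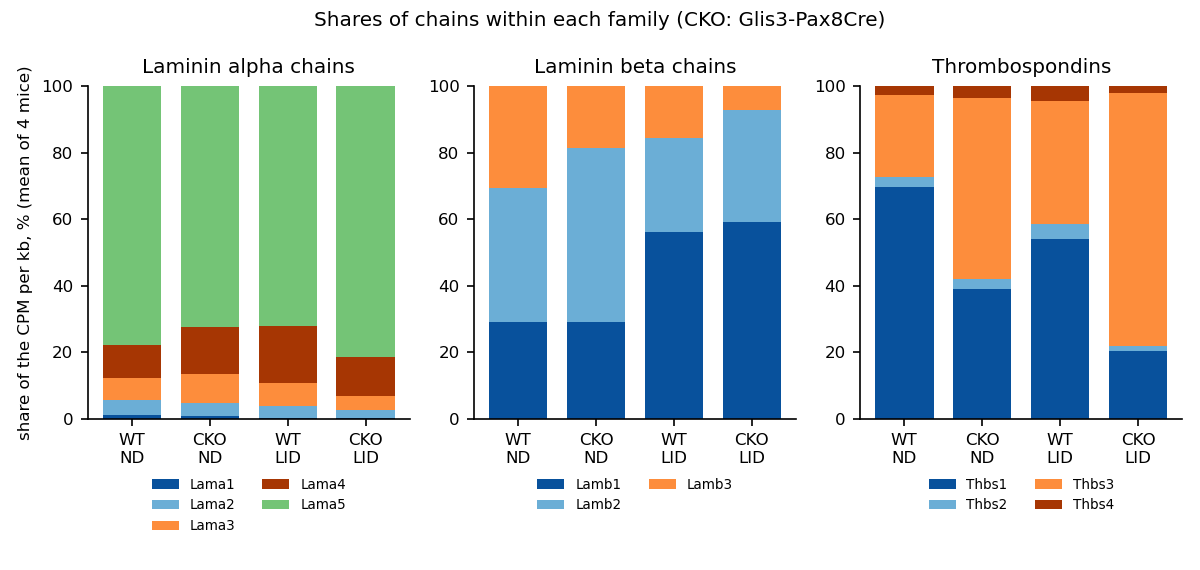
Mean share in percent (4 mice) of each chain in the summed CPM per kilobase of its family, for the laminin alpha and beta chains and the thrombospondins in the 4 groups, where CKO stands for *Glis3*-Pax8Cre. The share of *Lamb1* is larger under LID in both genotypes. *Thbs3* makes up 24.6% of the thrombospondins in WT(ND), 36.9% in WT(LID), 54.3% in *Glis3*-Pax8Cre(ND) and 76.0% in *Glis3*-Pax8Cre(LID).

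Thrombospondins differed in opposite directions. *Thbs3*, a pentamer known from developing bone and cartilage, was at 161, 138, 135 and 150.4 CPM in the WT(LID) mice, and at 388, 450.3, 404 and 414 CPM in the *Glis3*-Pax8Cre(LID) mice. Mice on ND had 51.1, 42.0, 84.6 and 34.3 CPM in WT and 100.3, 121, 132 and 72.1 CPM in *Glis3*-Pax8Cre mice. Levels were higher under LID than on ND in both genotypes without overlap, and the ND groups overlapped through WT(ND) replicate 3. *Thbs3* was 2.83-fold higher in *Glis3*-Pax8Cre mice under LID (1.5 ± 0.23, adjusted p = 1.7e-04) and 2.01-fold higher on ND (1.01 ± 0.23, adjusted p = 0.00712), or 1.34 ± 0.18, adjusted p = 9.5e-05 without that mouse. It rose with LID by 1.46 ± 0.23, adjusted p = 1.5e-04 in WT and 1.96 ± 0.23, adjusted p = 4.4e-05 in *Glis3*-Pax8Cre mice, and the interaction was not called (0.50 ± 0.32, adjusted p = 0.351). In the 8 ND mice alone the genotype difference was not called (1.02, adjusted p = 0.0645).

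*Thbs1*, the trimer that activates latent TGF-beta and binds CD36 and CD47, was at 218, 325, 277 and 267 CPM in the WT(LID) mice, and at 147, 127, 149 and 135 CPM in the *Glis3*-Pax8Cre(LID) mice. On ND the values were 217, 163, 137 and 275 CPM in WT and 86.1, 129, 100.4 and 70.1 CPM in *Glis3*-Pax8Cre mice. The genotypes did not overlap on either diet. Its log2 fold change was -0.96 ± 0.21, adjusted p = 0.00251 under LID and -1.04 ± 0.21, adjusted p = 0.00317 on ND. *Thbs2* was at 21.2, 23.8, 29.1 and 30.3 CPM in the WT(LID) mice and 13.2, 13.0, 12.3 and 8.95 CPM in the *Glis3*-Pax8Cre(LID) mice, and ranged from 8.53 to 11.5 CPM in the WT(ND) mice and from 6.67 to 9.85 CPM in the *Glis3*-Pax8Cre(ND) mice. It was lower under LID (-1.14 ± 0.16, adjusted p = 6.2e-05), rose in WT (1.43 ± 0.16, adjusted p = 5.4e-06), and had an interaction of -0.92 ± 0.22, adjusted p = 0.0136. *Thbs4*, known from tendon and muscle, rose in WT (1.64 ± 0.49, adjusted p = 0.0152) with a wide spread between mice, 8.87, 13.2, 7.14 and 20.9 CPM in the WT(LID) mice, and this call was lost without WT(LID) replicate 4 (1.28, adjusted p = 0.0582). By shares per kilobase, *Thbs1* made up 69.6% ± 12.7 of the thrombospondins in WT(ND) and 20.4% ± 2.14 in *Glis3*-Pax8Cre(LID), and *Thbs3* 24.6% ± 11.7 and 76.0% ± 2.20 (SD, n = 4). These groups differ in both genotype and diet, and the other groups lay between them. The mean share of *Thbs1* was 54.0% in WT(LID) and 39.2% in *Glis3*-Pax8Cre(ND), and that of *Thbs3* was 36.9% and 54.3%.

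Over the 41 members, the response to LID was compared between the genotypes gene by gene, as the interaction. In WT, 20 members rose and 4 fell, 58.5% against 41.7% of all genes tested (20.9% higher and 20.8% lower). At the study's threshold 12 rose and 2 fell in WT, against 7.68% and 4.8% of all genes. In *Glis3*-Pax8Cre mice, 10 rose and 5 fell, 36.6% against 25.4% of all genes (13.1% higher and 12.3% lower), and 6 rose and 7 fell with library size alone, when 1297 of all genes rose and 3386 fell. At the study's threshold 4 rose and 1 fell in them, against 2.93% and 2.07%. Groups did not overlap for 27 members between the diets in WT, against 46.9% of all genes, and for 12 in *Glis3*-Pax8Cre mice, against 21.9%. The interaction was called for 12 members, 29.3% against 11.8% of all genes (7.41% below 0 and 4.43% above), 11 with a lower log2 fold change with LID in *Glis3*-Pax8Cre than in WT mice and 1, *Itgb6*, with a higher one. At the study's threshold 6 were below 0 and 1 above, against 2.89% and 0.74% of all genes. The 11 were *Itga1*, *Itga2*, *Itga5*, *Itga9*, *Itgam*, *Itgax*, *Itgb1*, *Itgb3*, *Lama3*, *Lama4* and *Thbs2*. The median diet response was 0.52 in WT and -0.018 in *Glis3*-Pax8Cre mice, against -0.028 and -0.033 over all genes. In *Glis3*-Pax8Cre mice it was -0.056 over the integrins, 0.019 over the laminin chains and 0.66 over the thrombospondins. Over the 8 leukocyte subunits it was -0.087 in WT and -1.48 in *Glis3*-Pax8Cre mice, where replicate 4 on ND stood apart in several of them. These medians were taken with all 16 mice and not without those with *Rag1* above 50 CPM. The comparison of the genotypes under LID and that of the diets in WT share the 4 WT(LID) mice, so a gene high in these mice differs in both. The 9 members that rose in both genotypes were *Itga1*, *Itga3*, *Itgb1*, *Lama4*, *Lama5*, *Lamb1*, *Lamc1*, *Thbs2* and *Thbs3*.

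**Figure D5:**
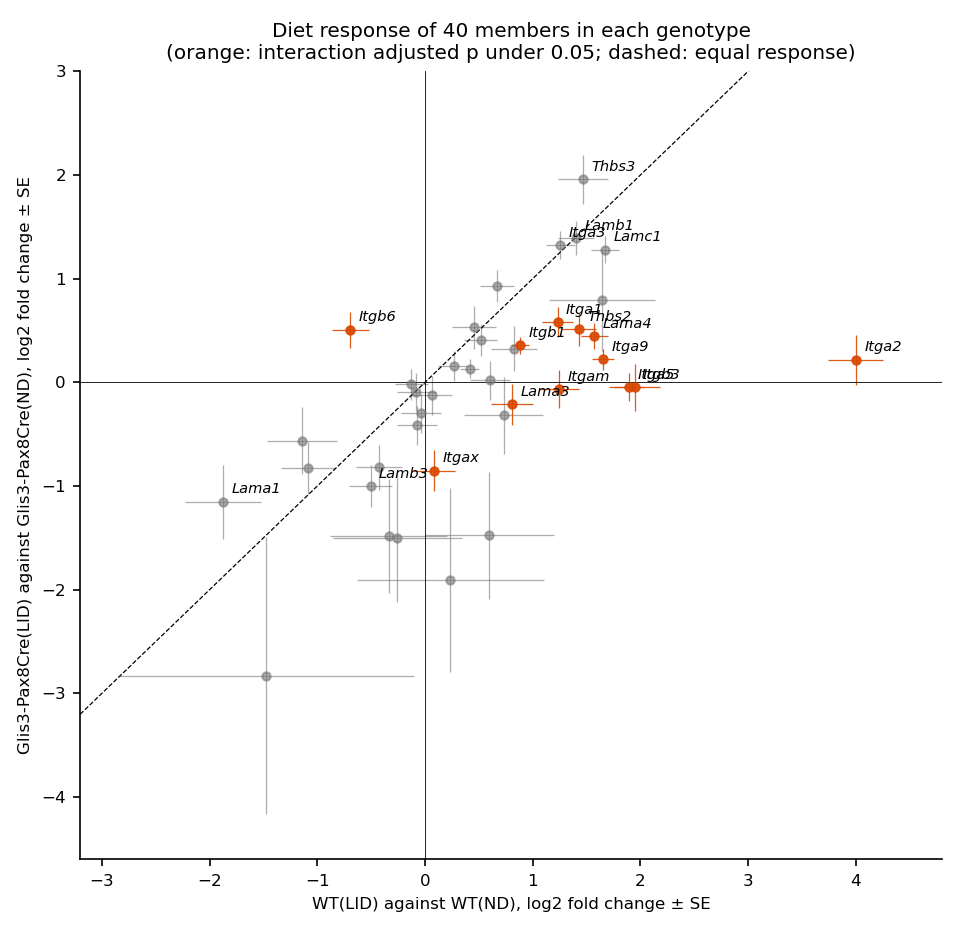
Log2 fold change with LID of 40 members in WT (horizontal axis) and in *Glis3*-Pax8Cre mice (vertical axis), with standard errors as whiskers, orange where the interaction was called and a dashed line for equal responses. *Itga2* lies at 4.0 and 0.22, *Itga3* and *Lamb1* lie near the dashed line, and *Itgb6* lies above it.

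Markers of vessels moved beside these members. Of the 8 endothelial markers, 7 were lower in the *Glis3*-Pax8Cre mice than in WT on LID and 8 rose with LID in WT, and their sum ranged from 727 to 949 CPM in the WT(ND) mice, from 926 to 1382 in the *Glis3*-Pax8Cre(ND) mice, from 1990.1 to 2234 in the WT(LID) mice and from 849.8 to 1168 in the *Glis3*-Pax8Cre(LID) mice. *Pecam1* differed by -1.57 ± 0.13, adjusted p = 3.2e-07 and *Cdh5* by -1.73 ± 0.16, adjusted p = 1.0e-06. All 6 markers of pericytes and smooth muscle were lower in *Glis3*-Pax8Cre(LID), with a sum of 498 to 723 CPM against 1027 to 1544 CPM in the WT(LID) mice. The 5 fibroblast markers summed to 1062 to 1240.3 CPM in the WT(LID) mice and 366 to 659 CPM in the *Glis3*-Pax8Cre(LID) mice, and 2 of them were lower, *Col1a1* (-1.48 ± 0.22, adjusted p = 1.5e-04) and *Col1a2* (-1.19 ± 0.19, adjusted p = 2.6e-04), while *Dcn* and *Lum* overlapped between the genotypes (-0.17 and -0.070, not called). On ND the fibroblast sum ranged from 536 to 742 CPM in the WT(ND) mice and from 249 to 507 CPM in the *Glis3*-Pax8Cre(ND) mice, without overlap, and 2 markers were lower, *Pdgfra* (-0.66 ± 0.21, adjusted p = 0.0362) and *Col1a1* (-0.67 ± 0.22, adjusted p = 0.0455). The part of these cell types in the results for *Itga5*, *Itga6*, *Itga8*, *Itga9*, *Itga11*, *Itgb3*, *Lama4*, *Thbs1* and *Thbs2* was not tested.

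Per kilobase of exon, *Itgb1* had the highest level in every group, with a lowest mean of 136 ± 1.12 CPM per kilobase in WT(ND) and a highest of 251 ± 0.718 CPM per kilobase under LID in WT (SD, n = 4). The members next in order differed by group. In the WT(ND) mice they were *Thbs1* (32.6 ± 10.1 CPM per kilobase), *Itgb5* (32.5 ± 0.362), *Lamb2* (29.7 ± 6.85) and *Itga6* (25.8 ± 1.60). *Thbs1*, *Itgb5* and *Lamb2* differed there by less than the SD of *Thbs1*. In the *Glis3*-Pax8Cre(ND) mice *Lamb2* (34.4 ± 8.64), *Itgb5* (29.8 ± 7.77) and *Itga6* followed, again within 1 SD of *Lamb2*. Under LID in WT they were *Lamb1* (58.1 ± 4.69), *Lamc1* (52.9 ± 1.86) and *Itga3* (50.5 ± 2.83). In the *Glis3*-Pax8Cre(LID) mice *Thbs3* (85.8 ± 5.49) came next, above *Itga3* (63.9 ± 10.01) and *Lamb1* (49.1 ± 5.13) by more than either SD. *Itgad* and *Lama1* were among the 4 lowest members in each group, and so was *Itga2* except in WT(LID), with 0.0958 CPM per kilobase in WT(ND) and 1.54 in WT(LID). Lengths are those of the merged exons of each gene in the GENCODE annotation of the same build, and neighbours in these orders were not tested against each other.

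Other genes of integrin and matrix adhesion were read from 4 lists. Of 74 genes tested of 78, 35 were lower and 6 higher in *Glis3*-Pax8Cre(LID) against WT(LID), and 7 were lower and 13 higher on ND. This is 55.4% called under LID, against 30.2% of all genes (15.4% lower), and 27.0% on ND, against 19.6% (10.3% higher). Of 19 other matrix ligands, 10 were lower under LID, among them the laminin-binding *Nid2* (-1.42 ± 0.20, adjusted p = 8.4e-05) and *Hspg2* (-1.42 ± 0.22, adjusted p = 1.8e-04) of basement membranes and *Vwf* of endothelial cells (-1.53 ± 0.21, adjusted p = 6.0e-05). The 2 higher ligands were *Edil3* (2.20 ± 0.41, adjusted p = 7.3e-04), which binds *Itgav* partners, and *Npnt* (0.40 ± 0.11, adjusted p = 0.0128), which binds *Itga8*. Of 15 other matrix receptors, 5 were lower, including the synaptic vesicle protein *Sv2a* (-1.06), the collagen receptor *Ddr2* (-0.64) and the laminin receptor *Dag1* (-0.60), and the 2 higher were the thrombospondin receptor *Cd36* (1.15 ± 0.24, adjusted p = 0.00224) and the syndecan *Sdc4* (0.79 ± 0.12, adjusted p = 1.3e-04). Of 30 genes of the cytoplasmic adhesion complex, 16 were lower under LID, led by the parvin *Parvb* (-1.68 ± 0.20, adjusted p = 1.6e-05), the ILK partner *Lims2* (-1.41 ± 0.18, adjusted p = 3.4e-05) and *Tgfb1i1* (-1.0 ± 0.15, adjusted p = 1.6e-04).

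The 10 counter-receptors of leukocyte integrins split under LID, with 4 lower and 2 higher. *Jam2* (-1.20 ± 0.10, adjusted p = 7.4e-07) and *Icam2* (-1.15 ± 0.21, adjusted p = 7.1e-04), which endothelial cells carry, and *Icam5* (-0.94) were lower. *Madcam1*, the ligand of *Itga4* with *Itgb7*, was higher (2.17 ± 0.53, adjusted p = 0.00595) at mean levels of 0.343 CPM in the *Glis3*-Pax8Cre(LID) mice and 0.0754 CPM in the WT(LID) mice, and *F11r*, a junctional ligand of *Itgal*, was higher by 0.51 ± 0.13, adjusted p = 0.00814. The median log2 fold change over all 74 genes of the lists was -0.36 under LID and 0.035 on ND, against -0.36 and 0.17 over the 41 members. On ND, with all mice, it was 0.24 over the integrins, -0.23 over the laminin chains and -0.035 over the thrombospondins. Over the 8 leukocyte subunits it was 0.67 on ND.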

How the data were processed

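RNA was extracted from the thyroid glands of 16 mice and sequenced as read pairs. The labels name the TruSeq RNA kit and the study's methods also a stranded TruSeq mRNA kit, and which instrument served which library is not given in the sources used here. The authors kept reads with base quality over 20, aligned them with STAR 2.5 and counted them per gene with featureCounts 1.5.0-p1 of the Subread package without strand, so that overlapping and antisense genes cannot be told apart. Tools and builds (mm10 for the mouse) are given in the submitters' processing notes. The deposited values are raw counts per gene, used as deposited. Each file column was matched to its mouse by its label.

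Differential expression was tested with edgeR 4.0.16 (limma 3.58.1, R 4.3.3), by the quasi-likelihood test with robust dispersion on all 16 mice, 1 mean per group, TMM normalization and the filterByExpr filter, which kept 16630 of 25611 entries. P-values were adjusted by the Benjamini-Hochberg method over all genes tested. Log2 fold changes are given with a standard error worked back from the test, as the absolute log2 fold change over the square root of its F statistic. This error draws on the spread within all groups of the fit, not only within the groups compared. The limit for a call was an adjusted p under 0.05. The study's own threshold, adjusted p under 0.01 with a fold over 2, was an alternative. The procedure was tested on simulated data. The comparisons were *Glis3*-Pax8Cre against WT on each diet, LID against ND in each genotype, and the interaction of genotype and diet. Other alternatives were DESeq2 1.42.0, RLE scaling, library size alone, *Tg* left out, no filter, at least 10 counts in every mouse, the 8 mice of a comparison alone, a replicate block, and each mouse left out. Leaving out the 4 mice with *Rag1* above 50 CPM was chosen after seeing the data. The members and lists were chosen with earlier results of these data known. Of the members, 1 is counted in the totals but is not reported here by itself.

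Values per mouse are given for up to 3 called members of each role with the largest change under LID, and for further members where a result turns on them, the latter chosen after their values were seen. In the lists of other adhesion genes, up to 3 lower and 2 higher called genes a list are named. Deviations of same-numbered mice from their group means correlated at 0.21 to 0.65 between *Glis3*-Pax8Cre(ND) and *Glis3*-Pax8Cre(LID). In the other comparisons they correlated from -0.52 to 0.14. Different-numbered mice reached 0.36 between the *Glis3*-Pax8Cre groups (replicate 1 on ND, replicate 2 under LID). They reached 0.49 between WT(LID) replicate 3 and *Glis3*-Pax8Cre(LID) replicate 4. The 0.65 joins replicate 4 of both *Glis3*-Pax8Cre groups, each with *Rag1* above 50 CPM. Replicate 3 of both groups correlated at 0.63, with *Rag1* at 0.360 CPM on ND and 0.0247 CPM under LID. These values cannot tell whether the numbers pair mice, and no label pairs them. No 2 mice of a group had counts that agree within sampling noise. The depth of 13892352 to 461077969 counted read pairs leaves counting error small for all but the lowest members. Intervals and errors are those between mice, and counts of PCR reads without molecular identifiers are not independent molecules.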

Additional observations from a re-analysis of the deposited data

Results flagged for a closer look

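In 16 of 164 groups of 4 mice checked over the members, 1 mouse stood apart from the other 3 by Dixon's test, where chance gives about 1 in 20. Of these, 10 were values of leukocyte subunits in a mouse with *Rag1* above 50 CPM. In *Glis3*-Pax8Cre(ND) replicate 4, *Itgal* was at 150.9 CPM, *Itgb2* at 81.0 CPM, *Itgb7* at 19.6 CPM, *Itgae* at 11 CPM and *Itgad* at 1.93 CPM. In *Glis3*-Pax8Cre(LID) replicate 4, *Itgal* was at 24.1 CPM, *Itgb2* at 14.6 CPM and *Itgad* at 0.281 CPM. *Itgal* was at 15.2 CPM in WT(ND) replicate 1 and at 23.6 CPM in WT(LID) replicate 3. The remaining values that stood apart were *Itgb5* at 64.5 CPM in *Glis3*-Pax8Cre(ND) replicate 4, *Itgb7* at 3.02 CPM in WT(ND) replicate 3, *Itga2* at 7.42 CPM in WT(LID) replicate 1, *Itgb6* at 9.72 CPM in WT(LID) replicate 4, *Lamc1* at 157 CPM in WT(ND) replicate 4 and *Thbs4* at 10.4 CPM in *Glis3*-Pax8Cre(ND) replicate 1.

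The response to LID differed between the genotypes for 12 members by the interaction term of edgeR's quasi-likelihood test. The log2 difference of the responses, *Glis3*-Pax8Cre minus WT, was -3.78 for *Itga2*, -1.99 for *Itgb3*, -1.94 for *Itga5*, -1.43 for *Itga9*, -1.31 for *Itgam* and -1.13 for *Lama4*. It was -1.02 for *Lama3*, -0.94 for *Itgax*, -0.92 for *Thbs2*, -0.65 for *Itga1* and -0.52 for *Itgb1*, and 1.20 for *Itgb6*.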

How the results depend on the processing

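No called member reversed its direction under any alternative. Of the called members, 16 of 19 under LID, 4 of 9 on ND, 21 of 24 between the diets in WT, 9 of 15 in *Glis3*-Pax8Cre mice and 9 of 12 interactions passed the threshold under all of 24 to 26 settings other than the study's threshold. Leaving out 1 mouse at a time gave 16 to 19 lower and 1 to 3 higher members under LID, 6 to 8 and 2 to 5 on ND, 4 to 5 and 18 to 21 in WT, 4 to 8 and 7 to 12 in *Glis3*-Pax8Cre mice, and 8 to 12 and 1 interactions. Over all genes these fits called 2168 to 3176 lower and 1792 to 2859 higher under LID. On ND they called 926 to 1659 and 1120 to 2003. With LID they called 2856 to 3897 and 3060 to 4032 in WT, and 1552 to 2322 and 1747 to 2446 in *Glis3*-Pax8Cre mice. Interactions were 963 to 1511 below 0 and 432 to 759 above. With library size alone, 4 members were higher under LID, 13 on ND and 6 with LID in *Glis3*-Pax8Cre mice, where 4122, 2719 and 1297 of all genes were higher. DESeq2 called 8 higher on ND, and 2259 of all genes. In the 8 mice of a comparison alone, 0 were higher on ND and 6 rose in *Glis3*-Pax8Cre mice, beside 872 and 1321 of all genes. Without the 4 mice with *Rag1* above 50 CPM, chosen after seeing the data, 1 was higher under LID and 3 fell in *Glis3*-Pax8Cre mice. Of all genes, 2001 and 1750 did so in that fit. At the study's threshold, 9 were lower and 1 higher under LID, 1 higher on ND, 2 fell and 12 rose in WT, 1 fell and 4 rose in *Glis3*-Pax8Cre mice, and 6 interactions were below 0. The cause of these differences was not tested, apart from the stricter threshold itself.

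The replicate number as a block in the 16 mice gave 17 lower and 2 higher members under LID, 6 and 4 on ND, 4 and 20 in WT, 5 and 10 in *Glis3*-Pax8Cre mice and 10 and 1 interactions. Over all genes it gave 2545 lower and 2330 higher under LID, and 1434 and 1578 on ND. With LID it gave 3331 and 3481 in WT and 1930 and 2108 in *Glis3*-Pax8Cre mice, and the interactions were 1208 and 663. With this block the interaction of *Itgax* was not called (-0.93, adjusted p = 0.0583). In the 8 *Glis3*-Pax8Cre mice alone, where same-numbered mice correlated, the block gave 5 that fell and 9 that rose. Of all genes, 1348 fell and 1545 rose in this fit. Against the fit of all 16 mice, it lost the call of *Itgb1* alone. Without the block, these 8 mice did not give that call either (adjusted p = 0.0836, against 0.0770 with it). The fit without the block further lost *Itgb6*, *Lama1*, *Lama4* and *Thbs2*, which were called with the block. Leukocyte sums without *Itga4* were 40.4 and 55.3 CPM on ND and LID in WT, and 102.9 and 40.4 CPM in *Glis3*-Pax8Cre mice, against 128 and 121 CPM and 233 and 114 CPM with it. Epithelial sums without *Itga6* were 163.9 and 350.8 CPM on ND and LID in WT, and 162.5 and 383.6 CPM in *Glis3*-Pax8Cre mice.

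Calls lost on leaving out 1 mouse that are not given above were those of *Itgb3* on ND without WT(ND) replicate 4 (0.73, adjusted p = 0.0677), of *Lama4* in *Glis3*-Pax8Cre mice without *Glis3*-Pax8Cre(LID) replicate 3 (0.38, adjusted p = 0.0523), and of *Thbs2* in *Glis3*-Pax8Cre mice without any of 5 mice, with log2 fold changes from 0.41 to 0.49. With 4 mice a group and at most 0.392 CPM of *Itgad* in 15 of the 16 mice, differences in the lowest members may not have been detectable.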
